A study of Mus musculus with 12 samples.

Results

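The PDZ-LIM and actin-binding LIM genes are described here across 12 RNA sequencing libraries of N2a cells. The genes were taken by name from the rows of the deposited tables: Pdlim1, Pdlim2, Pdlim3, Pdlim4, Pdlim5, Pdlim7, Ablim1 and Ablim3, 8 genes of 24318. Ldb3, a PDZ-LIM gene outside these 8, is given beside them. The set was drawn up with the vehicle comparisons already known: Pdlim3 and Ablim1 were chosen by their higher FPKM with vesicles than with Vehicle, and the others by family, so every value against Vehicle below is a description.

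N2a is a mouse neuroblastoma line that grows as neuron-like cells. It was given brain-derived extracellular vesicles (BDEVs), membrane particles released by cells of the brain, of the SE group (SE-BDEV, 4 libraries) or the CON group (CON-BDEV, 4 libraries), or it was given vehicle (Vehicle, 4 libraries). The title of the series gives SE as status epilepticus, a seizure that does not end by itself; CON is not spelled out in the labels. The line and its genotype are shared by all groups, and no dose or time of treatment is given in the labels. All cells came from 1 line, and nothing in the labels says that libraries of a group were separate cultures or vesicle preparations, so p-values reflect the spread among these 12 samples alone, and that spread may be technical. In the numbered library names SE-BDEV and CON-BDEV alternate, and the Vehicle libraries follow as a block. Whether this was an order of handling is not given, so differences from Vehicle cannot be told apart from such an order.

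PDZ-LIM proteins join a PDZ domain at one end, which binds alpha-actinin and related partners on actin filaments, to LIM domains at the other end, which bind kinases and other signalling proteins. The ALP branch (Pdlim1 to Pdlim4) has a single LIM domain and the Enigma branch (Pdlim5, Pdlim7 and Ldb3) has several. They are best known from the Z-discs of muscle and from stress fibres. The ABLIM proteins carry several LIM domains and a villin headpiece that binds actin filaments, and their worm counterpart, UNC-115 of Caenorhabditis elegans, acts in axon guidance.

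In N2a cells Pdlim7, Pdlim5, Ablim1 and Pdlim3 were the main genes of both families, Pdlim2 was lower, Ablim3 lay just above 1 FPKM, and Pdlim1 and Pdlim4 were near 0. FPKM is fragments per kilobase of transcript, scaled for the size of a library, so it can be set side by side between genes. With either kind of vesicle Pdlim3 was higher than with vehicle by 51.2% (SE-BDEV) and 42.0% (CON-BDEV) of the mean FPKM, and Ablim1 by 28.1% and 23.6%. Pdlim7 was higher by 9.38% and 11.8%, Pdlim5 by 3.02% and 1.68%, and Pdlim2 was lower, its means differing by -5.76% and -4.29%. Between SE-BDEV and CON-BDEV none of the tested genes passed the threshold.

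Promoter windows are shown for Pdlim3, Ablim1 and Pdlim7, whose vesicle libraries all lay above the Vehicle libraries. Pdlim7 did not pass the threshold with SE-BDEV. A window is also shown for Pdlim5, a PDZ-LIM gene whose vesicle and Vehicle libraries overlapped. Of 7 genes looked up, 6 had 11 windows in RefSeq's table for build GRCm38.p6, each from 250 bases before to 50 bases after an annotated start. The tables of expression were made on mm9, so these coordinates are not those of the FPKM values. Sequences run 5′ to 3′ along the gene's own strand, and capitals mark motif matches on either strand, so that GGAATG on the opposite strand reads CATTCC and GGGCGG reads CCGCCC. The Pdlim3 window is chr8:45885237-45885536 on the plus strand. The Ablim1 windows are chr19:57314870-57315169 for its first listed start and chr19:57274619-57274918 for its second, both on the minus strand. The windows of Pdlim7 and Pdlim5 (first listed start) are chr13:55513397-55513696 and chr3:142395647-142395946, also on the minus strand.
Pdlim3: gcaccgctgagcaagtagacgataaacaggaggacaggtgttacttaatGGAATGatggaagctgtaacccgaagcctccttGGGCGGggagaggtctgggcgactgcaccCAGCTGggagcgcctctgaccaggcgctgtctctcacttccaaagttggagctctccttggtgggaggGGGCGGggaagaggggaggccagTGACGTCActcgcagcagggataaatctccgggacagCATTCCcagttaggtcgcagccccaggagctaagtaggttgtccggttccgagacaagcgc
Ablim1, first start: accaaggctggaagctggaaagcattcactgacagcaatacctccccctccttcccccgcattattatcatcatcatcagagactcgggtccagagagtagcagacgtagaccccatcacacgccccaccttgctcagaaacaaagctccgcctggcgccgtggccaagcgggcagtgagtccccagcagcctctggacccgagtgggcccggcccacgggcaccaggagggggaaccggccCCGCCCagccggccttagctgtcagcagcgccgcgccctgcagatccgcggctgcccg
Ablim1, second start: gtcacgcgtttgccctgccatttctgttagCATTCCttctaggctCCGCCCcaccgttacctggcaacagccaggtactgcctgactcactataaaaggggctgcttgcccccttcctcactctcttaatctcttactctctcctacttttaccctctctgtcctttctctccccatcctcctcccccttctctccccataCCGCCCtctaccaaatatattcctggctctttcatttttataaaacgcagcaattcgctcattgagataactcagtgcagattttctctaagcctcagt
Pdlim7: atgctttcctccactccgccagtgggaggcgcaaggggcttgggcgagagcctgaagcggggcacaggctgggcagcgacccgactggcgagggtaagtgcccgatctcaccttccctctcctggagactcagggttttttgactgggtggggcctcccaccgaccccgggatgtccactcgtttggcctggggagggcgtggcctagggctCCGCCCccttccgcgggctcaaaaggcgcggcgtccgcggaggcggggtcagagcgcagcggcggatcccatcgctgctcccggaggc
Pdlim5, first start: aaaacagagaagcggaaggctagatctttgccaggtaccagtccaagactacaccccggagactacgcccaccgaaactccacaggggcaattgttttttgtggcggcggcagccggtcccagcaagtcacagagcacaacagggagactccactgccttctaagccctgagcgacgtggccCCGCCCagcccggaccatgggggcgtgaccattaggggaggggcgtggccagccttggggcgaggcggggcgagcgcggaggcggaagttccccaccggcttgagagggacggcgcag

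The motifs, chosen with the windows in view and searched on both strands, were the MCAT element GGAATG, the cAMP response element TGACGTCA, the E-box CAGCTG, the GC box GGGCGG, the sterol element TCACNCCAC and the CArG box, which binds serum response factor; no matches overlapped each other. The Pdlim3 window held GGAATG at bases -201 to -196 and, on the opposite strand, at -11 to -6 from the start. It also held TGACGTCA at -48 to -41, CAGCTG at -139 to -134 and GGGCGG at -168 to -163 and -71 to -66. Over all 32851 windows of the table, 14.7% held GGAATG, 1.79% held TGACGTCA, 16.3% held CAGCTG and 35.7% held GGGCGG. Of the 5 Ablim1 windows, the second start held GGAATG at -220 to -215 and the fourth at 21 to 26, the fourth also held CAGCTG, the third held GGGCGG alone and the fifth had no match; the last 3 are not shown. Among the windows shown, the first Ablim1 start, Pdlim7 and Pdlim5 held only GGGCGG, once each. The windows of Pdlim1 and Pdlim4, genes near 0 FPKM, are not shown and held 6 and 3 matches, all of them GGGCGG. The number of matches is thus not particular to the genes that were higher with vesicles. The CArG box, found in 1.63% of all windows, had no match in any of the 11 windows, which says only that these letters were not found there. TCACNCCAC, found in 1.24% of all windows, matched 1 of the 11, the second start of Pdlim5, which is not shown.

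**Figure D1:**
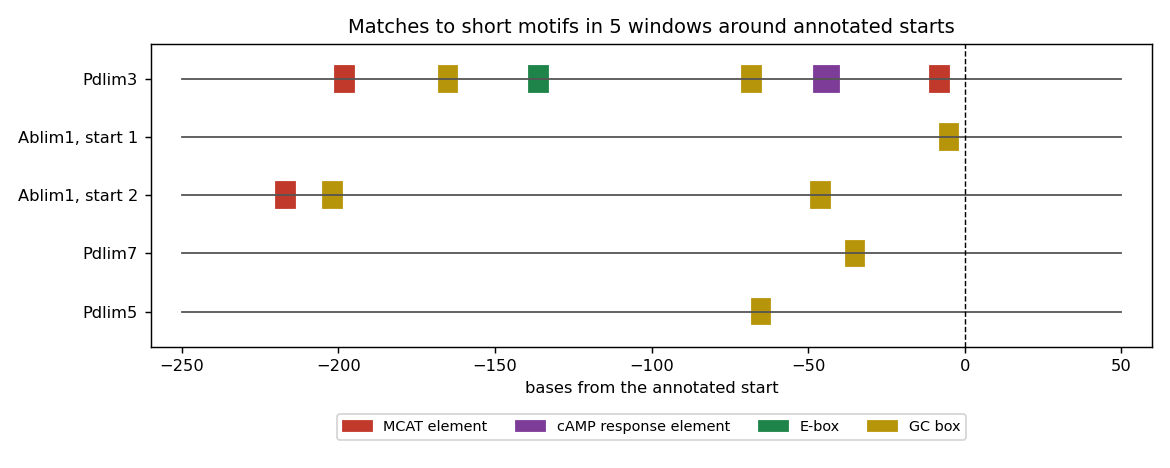
Matches to 4 short motifs in the 5 windows shown, by distance in bases from the annotated start (dashed line, gene running to the right). The Pdlim3 window holds 6 matches, the second Ablim1 start 3, and the first Ablim1 start, Pdlim7 and Pdlim5 1 each. The windows of Pdlim1 and Pdlim4, near 0 FPKM and not drawn, hold 6 and 3.

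The deposited files hold no library totals. Depth estimated from the lowest values was 13000000 to 15700000 fragments per library with SE-BDEV, 12900000 to 14600000 with CON-BDEV and 15300000 to 16600000 with Vehicle, and libraries of a group correlated across genes with a mean r of 0.992 to 0.996. Of 9 neuroblastoma and sympathetic markers 8 averaged at least 1 FPKM, among them Hand2 and Phox2a. Their summed level was 364 to 384 FPKM with SE-BDEV, 379 to 404 FPKM with CON-BDEV and 329 to 345 FPKM with Vehicle. The part of the depth and of this marker difference in the results below was not tested. In bulk RNA a change in the share of cells that express a gene and a change in RNA per cell cannot be told apart.

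In the ALP branch Pdlim3, the actinin-associated LIM protein of skeletal and cardiac muscle (mm9 chr8:46970838-47004900), measured 21.5, 21.7, 26.2 and 19.4 FPKM in SE-BDEV replicates 1 to 4. It measured 18.6, 19.4, 20.2 and 25.1 FPKM in CON-BDEV replicates 1 to 4, and 12.7, 16.1, 15.0 and 14.9 FPKM in Vehicle replicates 1 to 4. All 8 vesicle libraries lay above all 4 Vehicle libraries, with SE-BDEV replicate 3 and CON-BDEV replicate 4 the highest of their groups. The group means were 22.2 ± 2.86 FPKM with SE-BDEV, 20.8 ± 2.93 FPKM with CON-BDEV and 14.7 ± 1.45 FPKM with Vehicle (SD, n = 4 each). As log2(FPKM + 1), a scale that compresses the change of low genes, the difference from Vehicle was 0.56 ± 0.09 (SE) with SE-BDEV and 0.47 ± 0.09 with CON-BDEV. By size of rise Pdlim3 ranked 14 of 11311 genes tested with SE-BDEV and 17 of 11320 with CON-BDEV.

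The other ALP genes did not share that pattern of values. Pdlim2, which in mouse also acts in the nucleus in the turnover of transcription factors (mm9 chr14:70564024-70577479), ranged over 6.94 to 9.05 FPKM with SE-BDEV, 6.88 to 9.35 FPKM with CON-BDEV and 7.38 to 9.66 FPKM with Vehicle. These ranges overlap almost wholly, and the log2 differences from Vehicle were -0.08 ± 0.09 (SE) with SE-BDEV and -0.06 ± 0.09 with CON-BDEV. Pdlim4, also called RIL, was listed at 0, 0.0715, 0.0758 and 0 FPKM with SE-BDEV, at 0, 0, 0.210 and 0 FPKM with CON-BDEV, and at 0.296, 0.244, 0.0618 and 0.130 FPKM with Vehicle. It was above 0 in 2 of 4 SE-BDEV, 1 of 4 CON-BDEV and 4 of 4 Vehicle libraries. Pdlim1, also called CLP36, was listed at 0.0518, 0, 0.112 and 0 FPKM with SE-BDEV, at 0.0504, 0, 0 and 0.0527 FPKM with CON-BDEV, and at 0.0437, 0, 0 and 0 FPKM with Vehicle. These levels stand for roughly 0 to 5.3 fragments per library for Pdlim4 and 0 to 3.7 for Pdlim1, so no fold change is given for either.

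In the Enigma branch Pdlim7, or Enigma, which binds receptor tyrosine kinases through its LIM domains (mm9 chr13:55598847-55614807), had the highest level of the families. It measured 63.3, 61.0, 75.6 and 63.3 FPKM in SE-BDEV replicates 1 to 4, 67.7, 65.9, 66.2 and 69.4 FPKM in CON-BDEV replicates 1 to 4, and 59.8, 59.9, 61.0 and 60.04 FPKM in Vehicle replicates 1 to 4. Both vesicle groups lay above Vehicle without overlap, but SE-BDEV replicate 2 did so by less than 0.1 FPKM and SE-BDEV replicate 3 stood far above its group. The log2 difference from Vehicle was 0.12 ± 0.06 (SE) with SE-BDEV and 0.16 ± 0.03 with CON-BDEV. Without SE-BDEV replicate 3 the SE-BDEV difference was 0.05. Pdlim5, the Enigma homolog that binds protein kinase C (mm9 chr3:141902548-142058660), ranged over 23.9 to 26.2 FPKM with SE-BDEV, 23.5 to 26.5 FPKM with CON-BDEV and 23.8 to 25.2 FPKM with Vehicle. Its groups overlapped, its log2 differences from Vehicle were 0.04 ± 0.04 (SE) and 0.02 ± 0.04, and relative to its mean it had the smallest spread of the 6 tested genes over all 12 libraries together. Ldb3, also called ZASP or Cypher, a Z-disc protein of striated muscle, averaged 0.179 FPKM with SE-BDEV, 0.260 FPKM with CON-BDEV and 0.228 FPKM with Vehicle.

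Among the actin-binding LIM genes Ablim1 (mm9 chr19:57107753-57290522), expressed in muscle, retina and brain, measured 21.4, 21.6, 24.3 and 20.6 FPKM in SE-BDEV replicates 1 to 4. The CON-BDEV libraries measured 22.6, 19.96, 20.2 and 21.9 FPKM, and the Vehicle libraries 16.3, 17.0, 17.5 and 17.8 FPKM. No Vehicle library reached the lowest vesicle library. Group means were 21.9 ± 1.60 FPKM with SE-BDEV, 21.2 ± 1.29 FPKM with CON-BDEV and 17.1 ± 0.651 FPKM with Vehicle (SD, n = 4 each). On the log2 scale Ablim1 differed from Vehicle by 0.34 ± 0.05 (SE) with SE-BDEV and 0.29 ± 0.05 with CON-BDEV, ranking 50 and 88 by size of rise. The gene had 13 basic transcripts of 1251 to 7152 bases in a newer annotation, and a gene-level FPKM does not tell which of them, or which start, changed.

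Ablim3 (mm9 chr18:61959046-62071506) measured 1.95, 1.48, 1.06 and 1.44 FPKM with SE-BDEV, 1.19, 1.48, 1.48 and 1.48 FPKM with CON-BDEV, and 1.68, 1.67, 1.73 and 1.67 FPKM with Vehicle. All 4 CON-BDEV libraries lay below all 4 Vehicle libraries, while SE-BDEV replicate 1 lay above them and the other 3 below. Log2 differences from Vehicle were -0.13 ± 0.10 (SE) with SE-BDEV and -0.16 ± 0.08 with CON-BDEV, at roughly 60 to 120 fragments per library. With 0.1 FPKM added in place of 1 they were -0.21 and -0.25, still short of the threshold (limma adjusted p = 0.599 and 0.277).

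**Figure D2:**
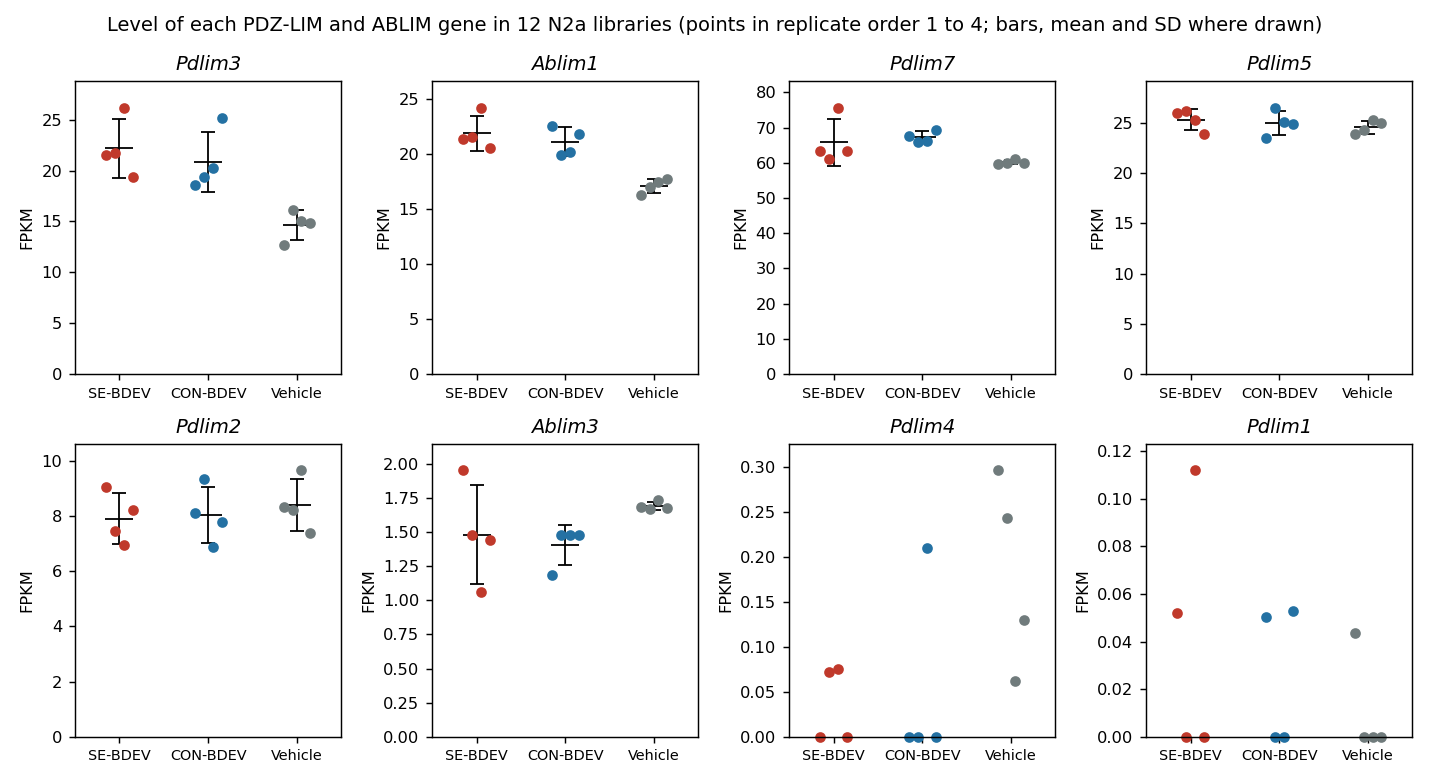
FPKM (vertical axis, from 0) of each of the 8 genes in SE-BDEV, CON-BDEV and Vehicle libraries, with 1 point per library in replicate order and bars for mean and SD (n = 4), left out for Pdlim4 and Pdlim1, which are listed at 0 in 5 and 7 of 12 libraries. Pdlim3 and Ablim1 libraries with vesicles all sit above the Vehicle libraries, whose highest values are 16.1 and 17.8 FPKM, and the groups overlap for Pdlim5 and Pdlim2.

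Against Vehicle, 6 of the 8 genes passed the minimum mean and were fitted with all genes by limma, with Benjamini-Hochberg adjustment and a threshold of 0.05. With SE-BDEV 2 of the 6, Pdlim3 and Ablim1, lay past the threshold as higher and 0 as lower, where 0.292% of 11311 genes were called higher and 0.919% in either direction. With CON-BDEV 3 of the 6, Pdlim3, Ablim1 and Pdlim7, lay past it as higher and 0 as lower, where 1.02% of 11320 genes were called higher and 2.84% in either direction. Groups did not overlap for 3 genes above Vehicle with SE-BDEV (5.77% of all genes), and for 3 above (5.68%) and 1 below (6.24%) with CON-BDEV. These counts follow from the choice of the genes and nothing is read from them. The comparisons share the Vehicle libraries, so the likeness of the fold changes in them is no separate observation. Over the 6 genes the median log2 difference was 0.08 with SE-BDEV (0.01 over all genes) and 0.09 with CON-BDEV (0.00 over all genes), and over the 4 genes other than Pdlim3 and Ablim1 differences ran between -0.13 and 0.12 with SE-BDEV and between -0.16 and 0.16 with CON-BDEV.

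The Pdlim3 call with SE-BDEV was lost without SE-BDEV replicate 1 (limma adjusted p = 0.0534) and without Vehicle replicates 1, 2, 3 or 4 (0.0764, 0.0596, 0.0703 and 0.0703), at log2 differences of 0.50 to 0.61. Ablim1 lost its SE-BDEV call without any 1 of the Vehicle libraries (limma adjusted p of 0.0592 to 0.0837). With CON-BDEV the Pdlim3 call was lost without Vehicle replicates 1, 3 or 4 (limma adjusted p of 0.0568 to 0.0641), and the calls of Ablim1 and Pdlim7 were kept without each of the 8 libraries in turn, though Pdlim7 lost its call in a fit of all 12 libraries (limma adjusted p = 0.173). In the authors' deposited table, made with Cuffdiff, the log2 fold changes of Pdlim3 were 0.60 with SE-BDEV and 0.51 with CON-BDEV, and those of Ablim1 were 0.36 and 0.31, all marked significant, as were 0.377% of 11928 genes in the SE-BDEV and 0.638% of 11912 in the CON-BDEV table as higher. Pdlim7, at 0.13 and 0.16 in the authors' deposited table, was not marked significant in either comparison (q = 0.803 and q = 0.468).

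SE-BDEV was set against CON-BDEV in a limma fit of all 12 libraries; this comparison had no part in choosing the genes. None of the 6 tested genes passed the threshold (adjusted p = 1.00 each, and 0 of 6 at an unadjusted p under 0.05), in a comparison where limma called 0 of 11312 genes and 296 genes (2.62%) had an unadjusted p under 0.05. The log2 difference was 0.09 for Pdlim3 (95% confidence interval -0.13 to 0.30), 0.05 for Ablim1 (-0.07 to 0.17) and -0.04 for Pdlim7 (-0.15 to 0.08). For Pdlim5 it was 0.02 (-0.07 to 0.11), for Pdlim2 -0.02 (-0.22 to 0.18) and for Ablim3 0.04 (-0.18 to 0.25). For Pdlim3 the interval runs over ratios of 0.915 to 1.23 of SE-BDEV to CON-BDEV (FPKM + 1), so equal levels are not shown. The groups overlapped for all 6 genes, where 1.39% of all genes had groups that did not overlap. The vesicle groups stand in separate tables, joined by the Vehicle columns that both tables hold.

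**Figure D3:**
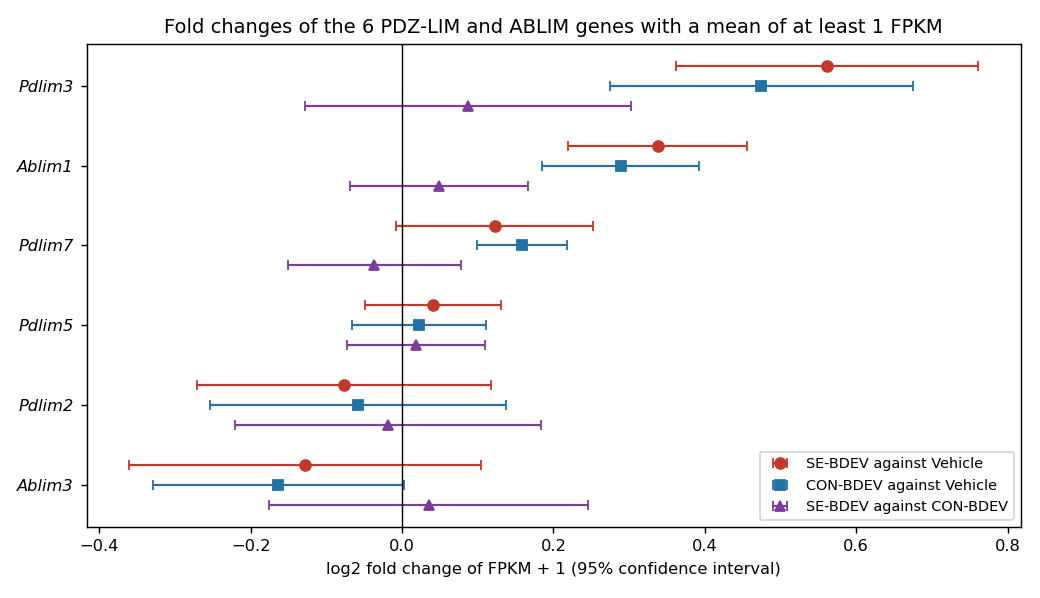
Log2 fold change of FPKM + 1 (horizontal axis) with its 95% confidence interval from limma for the 6 genes tested, for SE-BDEV against Vehicle, CON-BDEV against Vehicle and SE-BDEV against CON-BDEV. The Pdlim3 and Ablim1 values against Vehicle lie between 0.29 and 0.56, and all 6 intervals between the vesicle groups include 0.

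The order of levels in Vehicle cells was Pdlim7 at 60.2 FPKM, Pdlim5 at 24.6, Ablim1 at 17.1, Pdlim3 at 14.7, Pdlim2 at 8.39, Ablim3 at 1.69, Ldb3 at 0.228, Pdlim4 at 0.183 and Pdlim1 at 0.0109 FPKM. In that order each gene's lowest library lay above the next gene's highest, except for Ldb3 and Pdlim4, which overlapped. With SE-BDEV Pdlim3 at 22.2 FPKM overlapped both Pdlim5 at 25.3 FPKM above it and Ablim1 at 21.9 FPKM below it. With CON-BDEV Ablim1 at 21.2 FPKM and Pdlim3 at 20.8 FPKM overlapped. The overlap of Pdlim3 with Pdlim5 came from SE-BDEV replicate 3, at 26.2 FPKM of Pdlim3; the other SE-BDEV libraries had at most 21.7 FPKM of Pdlim3, below the lowest Pdlim5 value of 23.9 FPKM. Likewise Pdlim3 in CON-BDEV replicate 4, at 25.1 FPKM, lay above the lowest CON-BDEV value of Pdlim5, 23.5 FPKM, and the other CON-BDEV libraries had at most 20.2 FPKM of Pdlim3.

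Ratios of paralogs were taken within each library, on FPKM + 1. The log2 ratio of Pdlim3 to Pdlim5 was -0.26, -0.26, 0.05 and -0.29 with SE-BDEV, -0.32, -0.43, -0.30 and 0.02 with CON-BDEV, and -0.86, -0.56, -0.71 and -0.71 with Vehicle. Pdlim3 over Pdlim7 averaged -1.53 with SE-BDEV, -1.65 with CON-BDEV and -1.97 with Vehicle, and Pdlim3 over Pdlim2 averaged 1.38, 1.27 and 0.74 in the same groups. For each of these ratios all 8 vesicle libraries lay above all 4 Vehicle libraries. Against the geometric mean of the other 5 Pdlim genes, Pdlim3 stood 0.57 higher with SE-BDEV and 0.48 higher with CON-BDEV than with Vehicle on the log2 scale. That mean holds Pdlim1 and Pdlim4, near 0, and so depends on the FPKM added: with 0.1 in place of 1 the differences were 0.72 and 0.64.

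Ablim1 over Ablim3 gave 2.92, 3.19, 3.62 and 3.15 with SE-BDEV, 3.43, 3.08, 3.10 and 3.21 with CON-BDEV, and 2.69, 2.75, 2.75 and 2.81 with Vehicle. Here too no Vehicle library reached a vesicle library. The mean difference from Vehicle was 0.47 with SE-BDEV and 0.45 with CON-BDEV, and 0.56 in each with 0.1 FPKM added in place of 1. Pdlim7 over Pdlim5, by contrast, averaged 1.34 with SE-BDEV, 1.39 with CON-BDEV and 1.26 with Vehicle, and Pdlim3 over Ablim1 averaged 0.01, -0.03 and -0.21 in these groups; in both ratios the groups overlapped. The ratios rest on the values that chose Pdlim3 and Ablim1, so whether these paralogs differ from the rest in their response was not tested.

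**Figure D4:**
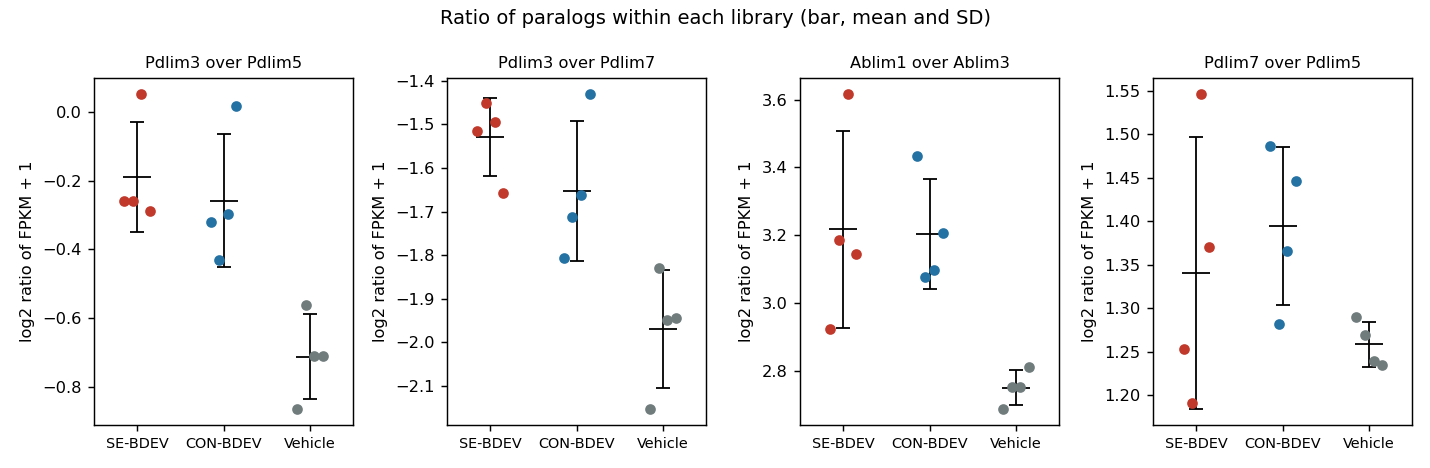
Log2 ratio of FPKM + 1 of a pair of paralogs within each library (vertical axes do not start at 0), with 1 point per SE-BDEV, CON-BDEV and Vehicle library and bars for mean and SD (n = 4). Vehicle libraries sit below all vesicle libraries for Pdlim3 over Pdlim5, Pdlim3 over Pdlim7 and Ablim1 over Ablim3, and among them for Pdlim7 over Pdlim5.

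Summed over the 6 Pdlim genes, the level was 121 ± 8.86 FPKM with SE-BDEV, 121 ± 4.24 FPKM with CON-BDEV and 108 ± 2.55 FPKM with Vehicle (SD, n = 4 each). Pdlim3 made up 18.2 ± 1.11% of that sum with SE-BDEV, 17.2 ± 1.82% with CON-BDEV and 13.6 ± 1.15% with Vehicle. Pdlim7 held the largest share in each group, 54.2% with SE-BDEV, 55.5% with CON-BDEV and 55.7% with Vehicle.

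The spread between libraries differed among the genes. The coefficient of variation of Pdlim7 was 10.1% with SE-BDEV, 2.43% with CON-BDEV and 0.951% with Vehicle, and that of Ablim3 was 24.7%, 10.4% and 1.78% in the same groups. Pdlim3 varied by 12.9%, 14.1% and 9.90%, and Pdlim2 by 11.6%, 12.7% and 11.2%. SE-BDEV replicate 3, the shallowest library of its group, held the highest Pdlim3, Ablim1 and Pdlim7 values of that group and its lowest Pdlim2 and Ablim3 values. Without it the log2 difference from Vehicle was 0.48 for Pdlim3, 0.29 for Ablim1 and -0.04 for Ablim3.

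Pdlim3, Pdlim5, Ldb3 and other genes of these families are known from muscle, so muscle markers were read beside them. Of 7 smooth muscle and pericyte markers Acta2, Pdgfrb and Des averaged at least 1 FPKM, Myh11 was at most 0.0906 FPKM, and the list summed to 12.1 to 13.8 FPKM with SE-BDEV, 12.6 to 14.6 FPKM with CON-BDEV and 11.9 to 13.1 FPKM with Vehicle. Of 6 striated muscle markers only Myh3, an embryonic myosin, averaged at least 1 FPKM, Mybpc1 was 0 in all libraries, and the list summed to 66.0 to 70.6 FPKM with SE-BDEV, 65.1 to 69.7 FPKM with CON-BDEV and 68.1 to 70.2 FPKM with Vehicle. The groups overlapped in both sums. Of 5 astrocyte markers 0 averaged 1 FPKM over all libraries, and the list summed to 0.744 to 1.02 FPKM with SE-BDEV, 0.640 to 0.855 FPKM with CON-BDEV and 0.990 to 1.14 FPKM with Vehicle, the CON-BDEV sums lying below the Vehicle sums. These sums were almost wholly Aldh1l1, which averaged 0.778 FPKM with SE-BDEV, 0.691 with CON-BDEV and 1.03 with Vehicle. The other astrocyte markers averaged at most 0.0778 FPKM in any group, and Gfap was higher with vesicles. The part of this in the results was not tested. Oligodendrocyte (5.82 to 6.84 FPKM), microglia (1.41 to 2.47), endothelial (2.63 to 3.65) and forebrain neuron lists (9.34 to 11.7 FPKM summed, over all libraries) overlapped between groups. Mbp, Tmem119, Pecam1 and Camk2a were among those that averaged at least 1 FPKM, with C1qb, Cldn5 and Neurod6 at 0 throughout, and of the red blood cell genes Hbb-b1 and Hbb-b2 were at 0 in all 12 libraries and the sum was at most 0.228 FPKM.

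Alpha-actinins are the main partners of the PDZ domain of these proteins. Of 17 alpha-actinin and Z-disc partner genes 8 were tested, and limma called 0 as higher and 0 as lower with SE-BDEV, with CON-BDEV and between the vesicle groups, nor was any marked significant in the authors' deposited tables. An unadjusted p under 0.05 was found for 0 of the 8 with SE-BDEV (14.8% of all genes), 1 with CON-BDEV (19.1% of all genes) and 0 between the vesicle groups. The smallest p belonged to Synpo2, an actin-bundling protein, with SE-BDEV (log2 difference 0.07 ± 0.07, SE) and to Actn1, a non-muscle alpha-actinin, with CON-BDEV (-0.08 ± 0.03, SE). Actn1 averaged 92.3 ± 3.08 FPKM with CON-BDEV and 97.3 ± 1.38 FPKM with Vehicle (SD, n = 4 each; limma adjusted p = 0.192). The list's median log2 difference was 0.03 with SE-BDEV and -0.02 with CON-BDEV.

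Of 42 names of other cytoskeletal LIM genes 27 were tested. With SE-BDEV 1 rose, Lima1, which crosslinks actin filaments, at 29.9 ± 1.07 FPKM with SE-BDEV and 25.6 ± 0.672 FPKM with Vehicle (SD, n = 4 each; log2 difference 0.21 ± 0.04, SE; limma adjusted p = 0.0324), and 0 fell, where 0.292% of all genes were called higher and 0.628% lower. That call was lost without any 1 library other than SE-BDEV replicate 2 (limma adjusted p of 0.0522 to 0.127). It was also lost with no filter on low values, the replicate number as a block or no trend (0.0547 to 0.109). With CON-BDEV 0 rose and 1 fell, where 1.82% of all genes were called lower. It was Mical1, an oxidase that disassembles actin filaments, at 18.6 ± 1.15 FPKM with CON-BDEV and 22.0 ± 0.418 FPKM with Vehicle (SD, n = 4 each; limma adjusted p = 0.0219). The Mical1 call was lost without CON-BDEV replicates 3 or 4 or any 1 Vehicle library (limma adjusted p of 0.0509 to 0.0764). It was also lost with no filter on low values, the replicate number as a block or all 12 libraries in the fit (0.0525 to 0.0923). Both genes differed from Vehicle in the same direction with the other vesicle kind, short of the threshold. Lima1 differed by 0.17 ± 0.05 (SE) on the log2 scale with CON-BDEV (limma adjusted p = 0.0739). Mical1 differed by -0.20 ± 0.06 with SE-BDEV (limma adjusted p = 0.173), beside -0.23 ± 0.04 with CON-BDEV. At an unadjusted p under 0.05 the list held 7 of 27 with SE-BDEV, 5 of them higher, where 14.8% of all genes had such a p, and 6 of 27 with CON-BDEV, 2 of them higher, where 19.1% had; the authors' deposited tables marked Mical1 with CON-BDEV and no gene of the list with SE-BDEV. The list's median log2 difference was 0.02 with SE-BDEV and 0.04 with CON-BDEV. Between the vesicle groups limma called 0 of the 27, with 0 at an unadjusted p under 0.05, the smallest p being that of Pxn, a focal adhesion adaptor.

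Serum response factor and its MRTF coactivators drive many actin genes, and 35 names of this kind, some of them old and new symbols of 1 gene, were looked up. Of 25 tested with SE-BDEV 0 passed limma's threshold in either direction, while 11 had an unadjusted p under 0.05, 7 of them higher, where 14.8% of all genes had such a p. Myl9, a myosin light chain, came nearest, at 10.99 ± 0.355 FPKM with SE-BDEV and 8.69 ± 0.826 FPKM with Vehicle (SD, n = 4 each; log2 difference 0.31 ± 0.06, SE; limma adjusted p = 0.0546), and it passed without SE-BDEV replicate 2 (0.044). Of 26 tested with CON-BDEV 0 rose and 2 fell (1.82% of all genes were called lower), and 11 had an unadjusted p under 0.05, 7 of them higher (19.1% of all genes). Those that fell were the actin-binding proteins Tagln2 and Cnn3. Tagln2 averaged 350.8 ± 10.9 FPKM with CON-BDEV and 395.8 ± 5.64 FPKM with Vehicle (SD, n = 4 each, limma adjusted p = 0.0075). That call was lost in a fit of all 12 libraries (limma adjusted p = 0.118) and with the replicate number as a block (0.0552). Cnn3 averaged 134 ± 5.19 FPKM with CON-BDEV and 149 ± 2.38 FPKM with Vehicle (SD, n = 4 each, limma adjusted p = 0.0324). The Cnn3 call was lost without CON-BDEV replicates 2 or 4 or any 1 Vehicle library (limma adjusted p of 0.0524 to 0.0979). It was also lost with no filter on low values, the replicate number as a block, no trend or all 12 libraries in the fit (0.0645 to 0.1255). With SE-BDEV neither passed, at log2 differences of -0.16 ± 0.05 (SE) for Tagln2 (limma adjusted p = 0.199) and -0.18 ± 0.04 for Cnn3 (0.103), beside -0.17 ± 0.03 and -0.15 ± 0.03 with CON-BDEV. Median log2 differences of the list were 0.02 with SE-BDEV and 0.04 with CON-BDEV. The calls differed by tool: the authors' deposited tables marked Cnn2, a calponin, as higher with SE-BDEV and Myl9 and Egr1, an immediate early transcription factor, as higher with CON-BDEV, and none of the list as lower. Between the vesicle groups limma called 0 of 26, with 1 at an unadjusted p under 0.05, the smallest p being that of Mkl2, a coactivator of serum response factor.

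Among 32 tested genes of actin turnover limma called 0 with SE-BDEV, where 3 had an unadjusted p under 0.05, all of them lower, a share under the 14.8% of all genes. With CON-BDEV 4 of 32 had an unadjusted p under 0.05, all of them lower, where 19.1% of all genes had such a p. There 0 rose and 1 fell, Arpc1b, a subunit of the Arp2/3 complex that nucleates branched actin, at 71.7 ± 3.38 FPKM with CON-BDEV and 87.0 ± 2.12 FPKM with Vehicle (SD, n = 4 each; limma adjusted p = 0.00335), a call lost in a fit of all 12 libraries (0.069). With SE-BDEV Arpc1b averaged 72.8 ± 8.88 FPKM (n = 4; log2 difference -0.26 ± 0.07, SE; limma adjusted p = 0.134), and without SE-BDEV replicate 4 it passed (0.0357). The authors' deposited tables marked Arpc1b as lower in both comparisons and no other gene of the list. The median log2 difference was -0.01 in both comparisons, and between the vesicle groups limma called 0 of 32, with 0 at an unadjusted p under 0.05, the smallest p being that of Ssh2, a cofilin phosphatase.

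Likeness to Pdlim3 was measured as Pearson's r of log2(FPKM + 1) over the 12 libraries, among 10795 genes. The libraries form 3 groups, so r follows group differences as well as the spread within groups and is given as a description. The genes most like Pdlim3 were Tnrc6c (r = 0.98), a scaffold of microRNA silencing, Lrrn3 (0.97), a neuronal leucine-rich repeat protein, Arid3a (0.96) and Atoh8 (0.96), transcription factors, and Nrep (0.96), a neuronal regeneration-related protein. Ablim1 ranked 40 at r = 0.91 and Pdlim7 ranked 322 at 0.79, against 0.39 for Pdlim5, -0.37 for Pdlim2 and -0.51 for Ablim3. Atoh8 averaged 9.01 FPKM with SE-BDEV, 9.01 FPKM with CON-BDEV and 6.37 FPKM with Vehicle.

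The genes most like Ablim1 were Plxnd1 (r = 0.97), a semaphorin receptor, Tsr1 (0.96), a ribosome assembly factor, Tub (0.96), the tubby protein, Hnrnpr (0.95), an RNA-binding protein, and Dkk3 (0.95), a secreted Dickkopf protein. Pdlim3 ranked 26 among them, and Ablim3 had r = -0.67. With each group's mean taken out, r over the 12 libraries was 0.61 between Pdlim3 and Ablim1, 0.63 between Pdlim3 and Pdlim7, and 0.75 between Ablim1 and Pdlim7. It was -0.62 between Ablim1 and Ablim3, and -0.21 between Pdlim3 and Ablim3. With Pdlim2 it was -0.33 for Pdlim3 and -0.35 for Ablim1, and with Pdlim5 it was 0.26 and -0.13. SE-BDEV replicate 3 held the highest Pdlim3, Ablim1 and Pdlim7 values of its group and its lowest Pdlim2 and Ablim3 values. Pdlim7 there stood far above its group. How far these r values rest on that library was not tested.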

How the data were processed

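Polyadenylated RNA of 12 N2a libraries was sequenced after a directional library kit, per the labels' protocols. Per the submitters' processing notes the authors used TopHat2 and Cuffdiff (no versions named) with build mm9; the annotation and the strand setting are not given. The deposited tables hold FPKM per gene and library, 1 table with SE-BDEV and Vehicle and 1 with CON-BDEV and Vehicle, each of 24318 gene rows. The authors' deposited comparison tables hold, per the file headers, FPKM per group, a log2 fold change, a test statistic (a score), a p-value and a q-value. The 4 Vehicle libraries stand in both tables and differed by a factor within 0.0336% of 1; their mean was used for levels and in the fit of 12 libraries.

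From these, log2(FPKM + 1) was fitted with limma 3.58.1 in R 4.3.3 (empirical Bayes with a trend, two-sided, Benjamini-Hochberg over all genes averaging at least 1 FPKM, threshold 0.05), within a table for each vehicle comparison. The fit was tested on simulated data whose changes were larger than most of those described here, so that test does not cover differences of their size. The genes, gene lists and motifs were chosen with earlier results of these data known. The text names the 8 genes, Ldb3, list genes past the threshold or, where there were none, with the smallest p, and the 5 genes most like Pdlim3 and Ablim1 by r, predicted loci, microRNA and small nucleolar RNA genes and rows of several names left out. Cnn2 and Egr1, marked in the authors' deposited tables, were named after their values were seen. Some genes of these families and lists are not reported here. Some lists hold old and new symbols of a gene. No row of the 8 genes held several names. In RefSeq's GRCm38 annotation Pdlim7 overlaps Mir6945 and Ablim1 overlaps 4930449E18Rik, both at 0 FPKM in all 12 libraries, and Pdlim1 and Ablim3 overlap predicted loci that were not analysed here. Depth was estimated from the lowest FPKM values (up to 0.05) of genes with transcripts of 1500 to 8000 bases, taken as 1 fragment, with transcript lengths from a newer mouse annotation, so depths and fragments per gene are approximate. Alternatives were another pseudocount, other minimum levels, median centring, the replicate number as a block, no trend, other libraries in the fit, and each library left out. Figures used matplotlib 3.10.9 under Python 3.11.15.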

Additional observations from a re-analysis of the deposited data

Results flagged for a closer look

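In 30 groups of 4 libraries, a library was set apart where its gap to the nearest of the others exceeded Dixon's 95% critical share of the group's range, which chance alone gives in about 1 in 20 groups. Pdlim7 in SE-BDEV replicate 3 measured 75.6 FPKM, against 61.0 to 63.3 FPKM in the other SE-BDEV libraries. Ablim3 in CON-BDEV replicate 1 measured 1.19 FPKM, against 1.48 FPKM in the other CON-BDEV libraries, and Ablim3 in Vehicle replicate 3 measured 1.73 FPKM, against 1.67 to 1.68 FPKM in the other Vehicle libraries. Pdlim4 in CON-BDEV replicate 3 measured 0.210 FPKM and Pdlim1 in Vehicle replicate 1 measured 0.0437 FPKM, where the other libraries of the group were listed at 0. With all the others at 0 the gap always equals the range, so the rate of 1 in 20 does not apply to these genes.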

How the results depend on the processing

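Of the 619 values recomputed under other settings, 530 kept their direction and side of the threshold or, for counts, stayed within 1.5 times and, for ratios, moved by less than the larger SD of the groups compared. The SE-BDEV count of 2 genes against Vehicle became 0 with no filter on low values and ran over 0 to 2 with a library left out; the CON-BDEV count of 3 was 2 or 3 throughout. Over all genes the SE-BDEV count of 104 became 0 with no filter, 48 with the replicate block and 171 in a fit of 12 libraries, and 5 to 315 with a library left out. The CON-BDEV count of 321 became 176 with no filter, 135 with the replicate block, 183 with no trend and 133 in a fit of 12 libraries, and 134 to 556 with a library left out. SE-BDEV against CON-BDEV gave 0 genes in every setting. Whether replicate numbers pair vesicle libraries with Vehicle libraries is not given in the labels, and the correlations that follow cannot settle it. Deviations of same-numbered libraries correlated at -0.10 to 0.04 between SE-BDEV and Vehicle and at -0.06 to 0.02 between CON-BDEV and Vehicle. Between SE-BDEV and CON-BDEV they correlated at -0.12 to 0.30, and 2 of 4 matched their own number best. The library names alternate between these groups by replicate number, but whether the groups were paired is not settled. With no filter, limma's adjusted p was 0.0845 for Pdlim3 and 0.0678 for Ablim1 with SE-BDEV and 0.0760 for Pdlim3 with CON-BDEV, and with no trend the last was 0.0535. Pdlim7 with CON-BDEV had 0.0666 with the replicate block and 0.173 in a fit of 12 libraries. Small differences changed sign with a library left out: Pdlim2 (-0.126 to 0.00526) and Pdlim5 (-0.00549 to 0.0498) with CON-BDEV, and between the vesicle groups Pdlim2 (-0.082 to 0.0491), Pdlim5 (-0.00918 to 0.0461) and Ablim3 (-0.0522 to 0.121). The cause of these shifts was not tested. Ablim3, Pdlim4 and Pdlim1, with few fragments, are the genes that depth limits most.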
